A study of Mus musculus with 4 samples.

Results

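NMuMG cells carrying Vp16-TRF1ΔN were compared with NMuMG cells carrying TRF1ΔN, both after 24 h of TGFβ, across all genes. NMuMG is a line of normal mammary epithelium of the mouse, which loses its epithelial shape and gains mesenchymal features when given TGFβ. TRF1ΔN is a mutated human TRF1, a protein of the telomere-binding shelterin complex, and Vp16-TRF1ΔN is that protein joined to the transcription activation domain of a herpesvirus protein. Both were stably expressed, so each group carried a form of human TRF1, and all cells were grown with 10% serum and insulin. The pair was chosen by its labels, as the library from each line after 24 h of TGFβ at 5 ng/ml, and genes were kept where the mean of the pair was at least 1 CPM (counts scaled to library size). Of 21971 genes listed, 11697 met this, and the construct rows were left out. The same 2 lines before TGFβ (0 h) made up the other 2 of the 4 libraries, and 11622 genes met the minimum in that pair. The series asks how more TERRA RNA changes the expression signature of the transition. Each group held 1 library, so there was no test between groups, and no 24 h library without TGFβ is named in the labels, so time in culture and TGFβ cannot be told apart. The labels do not say whether a line was 1 clone or a pool of clones.

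TGFβ binds receptor kinases that phosphorylate SMAD2 and SMAD3, which enter the nucleus with SMAD4 and, with partners such as AP-1, switch on genes of matrix, adhesion and secreted factors. In mammary epithelium this programme is the epithelial-to-mesenchymal transition (EMT): junction genes are turned down, and fibronectin, N-cadherin and transcription factors of the Snail and Zeb families are turned up. TERRA is the noncoding RNA that is transcribed from chromosome ends into the telomeric TTAGGG repeats, and TRF1 binds those repeats as double-stranded DNA.

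The 24 h libraries held 43354144 counts on genes in the TRF1ΔN line and 35418985 in the Vp16-TRF1ΔN line, and the 0 h libraries 45983910 and 41953130. At 24 h mitochondrially encoded genes took 13.3% of counts for TRF1ΔN and 15.7% for Vp16-TRF1ΔN, against 10.2% and 11.4% at 0 h. The row named VP16 held 1 and 27 counts at 24 h. The row named TRF1DN held 7798 counts in the TRF1ΔN line and 159 in the Vp16-TRF1ΔN line, 39.9-fold lower (34.1 to 47.01), so the lines differed in construct RNA as well as in the Vp16 domain, and the part of each in the results below cannot be told apart. Mouse Terf1, which encodes endogenous TRF1, stood at 14.5 and 13.9 CPM at 24 h, a log2 ratio of -0.05. RNA of the telomeric repeats was not analysed here.

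Most genes stood close together in the 2 treated lines. The median log2 ratio of Vp16-TRF1ΔN to TRF1ΔN was -0.01, with quartiles of -0.17 and 0.16, and 10522 genes (90.0%) lay within 1.5-fold. A gene is called counted below when its log2 ratio, computed with a prior count of 2 added to each library, was at least 1 in size (2-fold) and the exact 95% interval of the ratio, which covers counting error only, excluded 1. The prior count draws ratios of low counts towards 1; of 356 genes at 2-fold or more by the plain ratio of CPM with such an interval, 16 were not counted for that reason. Folds printed are plain ratios of CPM, and the 1.5-fold and 4-fold marks are read from the log2 ratio. By that rule 176 genes were counted as higher in the Vp16-TRF1ΔN line (1.5% of genes) and 164 as lower (1.4%), together 2.91%. Without the minimum of 1 CPM these numbers were 417 and 483. Before TGFβ the same rule counted 22 as higher (0.189%) and 32 as lower (0.275%), together 0.465%, and 97.7% of genes lay within 1.5-fold. Of the 176 higher genes 167 were protein coding, 81 had a mean of at least 5 CPM and 15 of at least 50 CPM, and 18 reached 4-fold. Of the 164 lower genes 153 were protein coding, 75 reached 5 CPM, 20 reached 50 CPM and 33 reached 4-fold. The minimum of 1 CPM was passed narrowly by Ap1s3 (1.19 and 0.817 CPM) and missed narrowly by Adgrf5 (1.21 and 0.788 CPM) and AV356131 (0.855 and 1.14 CPM). Values given as a pair are in the order TRF1ΔN, then Vp16-TRF1ΔN, and folds are followed by their 95% counting interval.

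**Figure D1:**
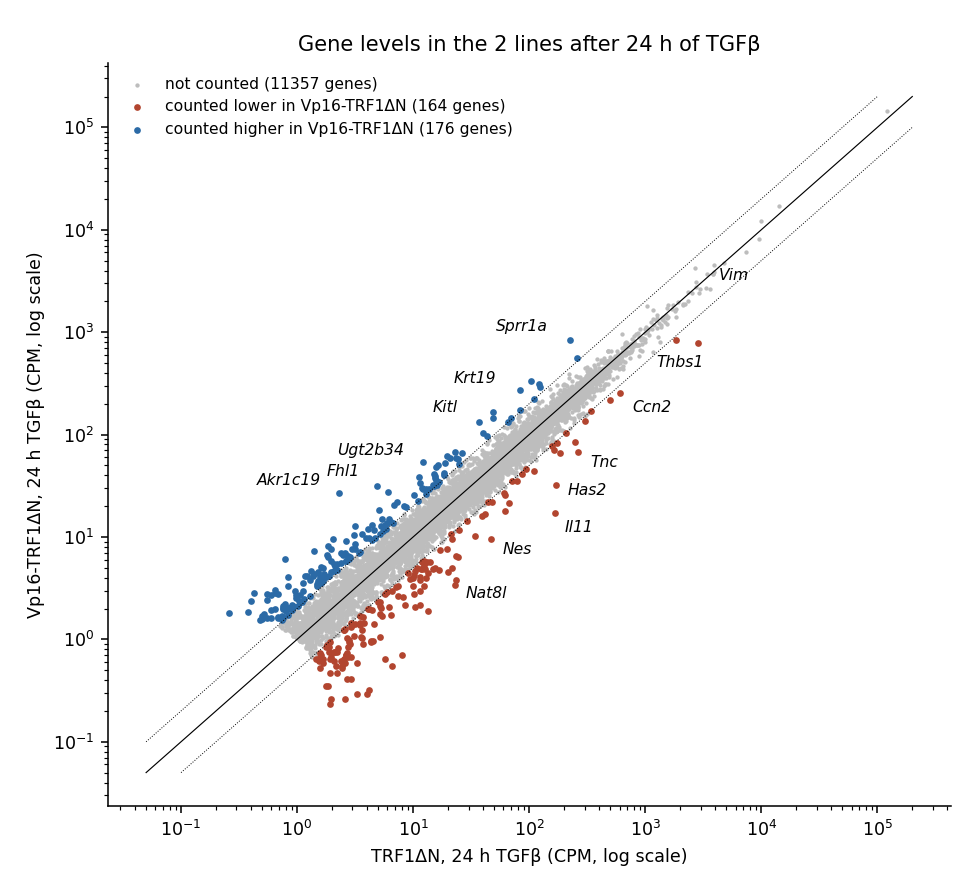
Level of each gene after 24 h of TGFβ in the TRF1ΔN line (x axis, CPM, log scale) and in the Vp16-TRF1ΔN line (y axis, CPM, log scale), 1 library each, for genes whose mean reached 1 CPM; the solid line marks equal levels and the dotted lines 2-fold. The 176 genes counted as higher lie above the upper dotted line and the 164 counted as lower below the lower one, among 11357 genes that were not counted.

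Several secreted ligands were among the genes counted as lower. Il11, an IL-6 family cytokine on chromosome 7 (chr7:4772373-4782859, minus strand), stood at 0.651 and 0.255 CPM at 0 h and at 166 and 17.2 CPM at 24 h, 9.64-fold lower (8.86 to 10.5) in the treated Vp16-TRF1ΔN library. Both treated libraries were far above both untreated ones, and the treated TRF1ΔN library was the highest of the 4. The untreated libraries already stood apart, with 31 and 11 counts, 2.55-fold lower (1.25 to 5.62). Lif, a cytokine of the same family, stood at 17.00 and 15.3 CPM at 0 h and at 111 and 43.7 CPM at 24 h, 2.53-fold lower (2.39 to 2.69). Inhba encodes the subunit of activin A, a ligand of the TGFβ superfamily, and stood at 12.7 and 11.5 CPM at 0 h against 185 and 66.2 CPM at 24 h, 2.79-fold lower (2.66 to 2.93). Wnt9a, a Wnt ligand gene, had 11 and 8 counts at 0 h and stood at 24.4 and 6.30 CPM at 24 h, 3.86-fold lower (3.33 to 4.49). In Lif, Inhba and Wnt9a the untreated libraries of the 2 lines lay close together and below both treated ones. Relt, a receptor of the TNF receptor superfamily, stood at 3.78 and 2.97 CPM at 0 h and at 21.5 and 4.99 CPM at 24 h, 4.31-fold lower (3.66 to 5.10). A lower level in a bulk library cannot tell fewer cells with the RNA from less RNA per cell, here and for every gene below.

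Some matrix genes were lower too, though most genes of the matrix lists given further down were not counted. Has2, the hyaluronan synthase on chromosome 15 (chr15:56665627-56694539, minus strand), had 4 and 6 counts at 0 h and stood at 169 and 32.04 CPM at 24 h, 5.26-fold lower (4.94 to 5.62). The antisense gene Has2os overlaps it, and without a stated strand setting their reads cannot be told apart. Tnfaip6, whose product binds hyaluronan and loads it with heavy chains, had 4 and 0 counts at 0 h and stood at 19.8 and 4.52 CPM at 24 h, 4.39-fold lower (3.69 to 5.24). Tnc, tenascin C, a matrix glycoprotein of wounds and tumour stroma, stood at 1.36 and 0.534 CPM at 0 h and at 264 and 67.8 CPM at 24 h, 3.90-fold lower (3.73 to 4.08). The microfibril gene Fbn1 had 28 and 9 counts at 0 h and stood at 10.5 and 2.07 CPM at 24 h, 5.06-fold lower (3.93 to 6.59). Tnc and Fbn1 were lower in the Vp16-TRF1ΔN line before TGFβ as well, Tnc 2.56-fold lower (1.57 to 4.31) and Fbn1 2.81-fold lower (1.29 to 6.78). In Has2, Tnfaip6, Tnc and Fbn1 the treated TRF1ΔN library was the highest of the 4 and the treated Vp16-TRF1ΔN library the next. Ccn2, connective tissue growth factor, stood at 77.5 and 78.7 CPM at 0 h and at 611 and 255 CPM at 24 h, 2.39-fold lower (2.33 to 2.45). The metalloproteinase inhibitor gene Timp3, which lies inside the oppositely oriented gene Syn3, stood at 9.07 and 2.71 CPM at 0 h and at 248 and 84.1 CPM at 24 h, 2.95-fold lower (2.83 to 3.08). For Timp3, too, the untreated libraries stood apart, with a log2 ratio of -1.72, against 0.02 for Ccn2; this difference between genes was not tested.

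Genes better known from nerve cells or other tissues were lower as well. Nat8l, which makes N-acetylaspartate, had 0 counts in both untreated libraries, at most 0.0630 and 0.0696 CPM, and stood at 23.3 and 3.79 CPM at 24 h, 6.15-fold lower (5.12 to 7.44). Arc, an immediate early gene of neurons, had 10 and 11 counts at 0 h and stood at 11.4 and 2.16 CPM at 24 h, 5.26-fold lower (4.11 to 6.81). The polysialyltransferase gene St8sia2 had 1 and 0 counts at 0 h and stood at 11.4 and 2.95 CPM at 24 h, 3.89-fold lower (3.13 to 4.86). All 3 were almost absent before TGFβ. Igha, the constant region gene of the immunoglobulin alpha chain, had 0 counts in both untreated libraries and stood at 12.5 and 3.30 CPM at 24 h, 3.80-fold lower (3.09 to 4.69). Igha is known from plasma cells. Of 8 immune markers listed 5 had a row of counts, whatever its level. Of these, 1 and 2 were at 0 in the treated libraries (Lyz2 in both, Itgam in Vp16-TRF1ΔN). Others were present: Cd68 had 123 and 110 counts at 24 h. Csf1r had 1 and 2 counts at 0 h and 101 and 21 at 24 h, and was counted as lower. The leukocyte gene Ptprc had at most 7 counts in any library. Lpin3, a phosphatidate phosphatase gene, followed another order: it stood at 4.34 and 4.85 CPM at 0 h and at 8.55 and 2.19 CPM at 24 h, 3.91-fold lower (3.04 to 5.08), with the treated Vp16-TRF1ΔN library the lowest of the 4.

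A further set of low genes was already low before TGFβ. Alpl, tissue-nonspecific alkaline phosphatase, stood at 19.6 and 2.55 CPM at 0 h and at 22.9 and 3.38 CPM at 24 h, 6.77-fold lower (5.58 to 8.28). Scara3, a scavenger receptor gene, stood at 3.15 and 0.464 CPM at 0 h and at 13.5 and 1.90 CPM at 24 h, 7.11-fold lower (5.50 to 9.34). Nes, the intermediate filament nestin of stem and progenitor cells, stood at 9.34 and 2.13 CPM at 0 h and at 46.6 and 9.66 CPM at 24 h, 4.82-fold lower (4.29 to 5.43). In these genes the lines stood apart by a like log2 ratio at both times: -2.92 and -2.74 for Alpl, -2.64 and -2.80 for Scara3 and -2.11 and -2.26 for Nes, at 0 h and 24 h. Eda2r, a receptor of the TNF receptor superfamily and a p53 target, stood at 11.9 and 3.46 CPM at 0 h and at 10.3 and 2.74 CPM at 24 h, 3.74-fold lower (2.99 to 4.73). Lcn2, a lipocalin that binds bacterial iron carriers, stood at 273 and 50.3 CPM at 0 h and at 34.4 and 10.2 CPM at 24 h, 3.37-fold lower (2.997 to 3.80). Lcn2 was lower in both treated libraries than in the matching untreated ones.

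**Figure D2:**
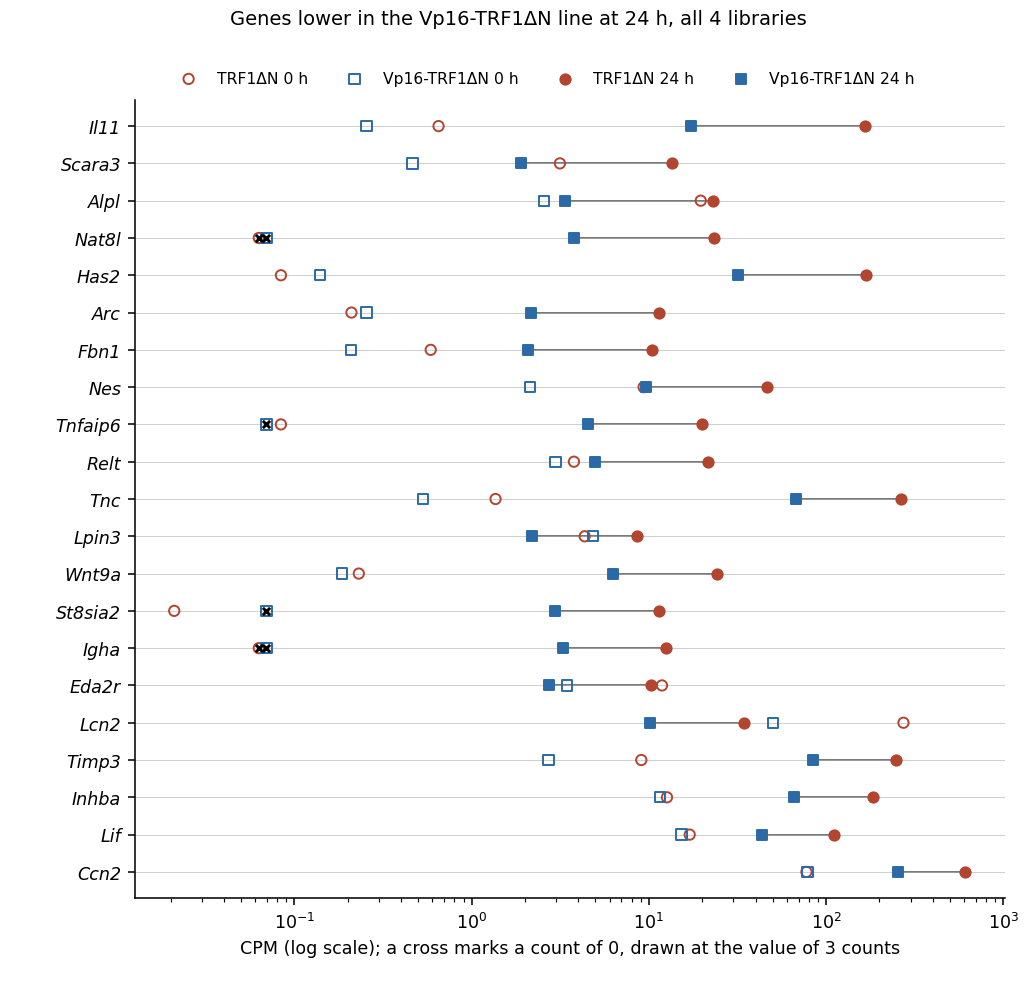
Level in each of the 4 libraries (x axis, CPM, log scale) for the named genes lower in the Vp16-TRF1ΔN line at 24 h; circles are TRF1ΔN, squares Vp16-TRF1ΔN, open symbols 0 h, filled symbols 24 h, and a cross is a count of 0 drawn at the value of 3 counts, while the 1 count of St8sia2 is drawn at its own value. Il11 and Has2 show a wide step between untreated and treated libraries, whereas Alpl and Eda2r show the line difference at both times.

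The stretch of 250 bases before the start of 4 of these genes is shown because they were lower together; the 4 were chosen, after their values were seen, to show each motif at least once. The bases come from RefSeq promoter entries of GRCm38.p6, whose starts can differ from the GENCODE gene bounds given above, and are written 5′ to 3′ on the gene's strand. Capitals mark every match to 3 motifs, read on both strands: TTAGGG, the telomeric repeat unit that TRF1 binds in tandem and that reads CCCTAA on the other strand; CAGAC, the SMAD-binding element, which reads GTCTG on the other strand; and TGANTCA, the AP-1 site, which reads the same on both. For Il11, which has several starts in the reference, the first listed one is shown, at chr7:4782858-4783107, minus strand. Tnfaip6 is at chr2:52037863-52038112, Inhba at chr13:16011601-16011850 and Nes at chr3:87970843-87971092, all on the plus strand. The window reaches 104 bases into the GENCODE gene for Tnfaip6, 15 for Nes and 2 for Il11.
Il11: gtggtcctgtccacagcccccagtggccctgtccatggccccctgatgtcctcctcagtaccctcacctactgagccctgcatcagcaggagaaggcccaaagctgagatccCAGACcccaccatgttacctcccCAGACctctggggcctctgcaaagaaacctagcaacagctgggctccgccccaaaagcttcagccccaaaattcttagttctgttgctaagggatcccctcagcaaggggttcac
Tnfaip6: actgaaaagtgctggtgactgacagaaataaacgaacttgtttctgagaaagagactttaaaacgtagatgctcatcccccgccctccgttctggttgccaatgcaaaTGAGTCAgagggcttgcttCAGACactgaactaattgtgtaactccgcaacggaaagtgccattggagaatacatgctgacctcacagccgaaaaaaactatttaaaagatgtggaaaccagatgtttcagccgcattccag
Inhba: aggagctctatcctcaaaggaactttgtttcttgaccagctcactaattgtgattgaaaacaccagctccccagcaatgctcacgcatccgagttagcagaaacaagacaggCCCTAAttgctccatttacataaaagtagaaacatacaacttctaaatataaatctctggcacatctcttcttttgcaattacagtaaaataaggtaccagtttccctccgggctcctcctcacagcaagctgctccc
Nes: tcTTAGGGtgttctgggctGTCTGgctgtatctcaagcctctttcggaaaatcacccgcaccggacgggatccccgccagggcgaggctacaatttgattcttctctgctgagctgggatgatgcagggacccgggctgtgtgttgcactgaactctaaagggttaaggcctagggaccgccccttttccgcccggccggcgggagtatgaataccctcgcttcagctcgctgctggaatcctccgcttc
None of the marked matches overlap. Il11 holds 2 SMAD-element matches, Tnfaip6 1 SMAD element and 1 AP-1 site, Inhba 1 telomeric unit, and Nes 1 telomeric unit and 1 SMAD element. Such entries were found for 8968 of the 11697 genes, 135 of the higher and 110 of the lower ones. CAGAC occurred in 40.1% of all 8968, in 37.0% of the higher and in 53.6% of the lower genes. TTAGGG occurred in 9.43% of all, in 12.6% of the higher (17 genes) and in 10.9% of the lower (12 genes), and the tandem of 2 units in 1 gene of all and in no counted gene. TGANTCA occurred in 4.33% of all, in 12.6% of the higher (17 genes) and in 10.0% of the lower (11 genes). These shares describe letters in a window and were not tested.

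In each gene named here by size as higher, the treated TRF1ΔN library was the lowest of the 4 libraries. Enzymes that modify foreign compounds and steroids led the list. Akr1c19, an aldo-keto reductase on chromosome 13 (chr13:4228700-4252843, plus strand), stood at 230.5 and 275 CPM at 0 h and at 2.28 and 26.99 CPM at 24 h, 11.8-fold higher (9.58 to 14.8). The treated Vp16-TRF1ΔN library lay between the treated TRF1ΔN library and the untreated pair. Akr1c19 and the glucuronosyltransferase gene Ugt2b34 belong to families of close copies, and how the counting split reads among the copies was not examined. Ugt2b34 stood at 299 and 419 CPM at 0 h and at 12.04 and 53.4 CPM at 24 h, 4.44-fold higher (4.02 to 4.90). The sulfotransferase gene Sult1c2 stood at 196 and 261 CPM at 0 h and at 6.03 and 27.6 CPM at 24 h, 4.58-fold higher (3.98 to 5.28). Cyp2s1, a cytochrome P450, stood at 64.9 and 67.2 CPM at 0 h and at 2.04 and 9.51 CPM at 24 h, 4.66-fold higher (3.66 to 5.98). Aldh3a1, an aldehyde dehydrogenase of surface epithelia, stood at 170.3 and 184 CPM at 0 h and at 3.06 and 10.6 CPM at 24 h, 3.45-fold higher (2.81 to 4.25). The order of the 4 libraries was the same in these 5 enzyme genes.

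Several genes of epithelial structure were higher as well. Krt19, a keratin of simple and ductal epithelia on chromosome 11 (chr11:100140810-100148665, minus strand), stood at 1565 and 1648 CPM at 0 h and at 82.7 and 270.03 CPM at 24 h, 3.27-fold higher (3.14 to 3.40). Sprr1a, a cornified envelope protein gene, stood at 1137 and 1012 CPM at 0 h and at 225 and 831 CPM at 24 h, 3.69-fold higher (3.61 to 3.78). For Sprr1a the treated Vp16-TRF1ΔN library lay near the untreated pair and the treated TRF1ΔN library stood apart below. Vsig1, a junctional immunoglobulin protein gene, stood at 328 and 348 CPM at 0 h and at 11.3 and 38.1 CPM at 24 h, 3.37-fold higher (3.03 to 3.75). Mgat3, the enzyme that adds bisecting N-acetylglucosamine to N-glycans, stood at 353 and 362 CPM at 0 h and at 48.9 and 164 CPM at 24 h, 3.36-fold higher (3.19 to 3.54). Sorbs2, an adaptor of actin and adhesion complexes, stood at 149 and 159 CPM at 0 h and at 48.9 and 146 CPM at 24 h, 2.99-fold higher (2.84 to 3.15), so that 3 libraries lay close together and the treated TRF1ΔN library below them.

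Signalling and transcription genes were also among the higher ones. Kitl, the ligand of the receptor Kit, stood at 184 and 206 CPM at 0 h and at 37.01 and 133 CPM at 24 h, 3.61-fold higher (3.40 to 3.82). Fhl1, a LIM-domain protein gene on chromosome X (chrX:56731787-56793346, plus strand), stood at 40.3 and 61.9 CPM at 0 h and at 4.85 and 31.4 CPM at 24 h, 6.48-fold higher (5.57 to 7.56). Egln3, a prolyl hydroxylase that marks hypoxia-inducible factors for decay, stood at 69.6 and 70.4 CPM at 0 h and at 5.08 and 18.4 CPM at 24 h, 3.62-fold higher (3.10 to 4.25). The untreated libraries were the upper pair in all 3. Id2, which binds and blocks basic helix-loop-helix factors and is induced by BMP, stood at 352 and 375 CPM at 0 h and at 39.7 and 103 CPM at 24 h, 2.59-fold higher (2.45 to 2.75). Vcam1, an adhesion molecule for leukocytes and an NF-κB target, stood at 411 and 646 CPM at 0 h and at 103 and 335 CPM at 24 h, 3.25-fold higher (3.14 to 3.37). In Vcam1 the Vp16-TRF1ΔN line was above the TRF1ΔN line at 0 h too, by a log2 ratio of 0.65. Selenop, a secreted selenium carrier, stood at 1309.5 and 1588 CPM at 0 h and at 121 and 310.2 CPM at 24 h, 2.57-fold higher (2.49 to 2.66). C1s1, a serine protease of the classical complement pathway, stood at 47.4 and 83.1 CPM at 0 h and at 3.16 and 12.8 CPM at 24 h, 4.05-fold higher (3.32 to 4.95).

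**Figure D3:**
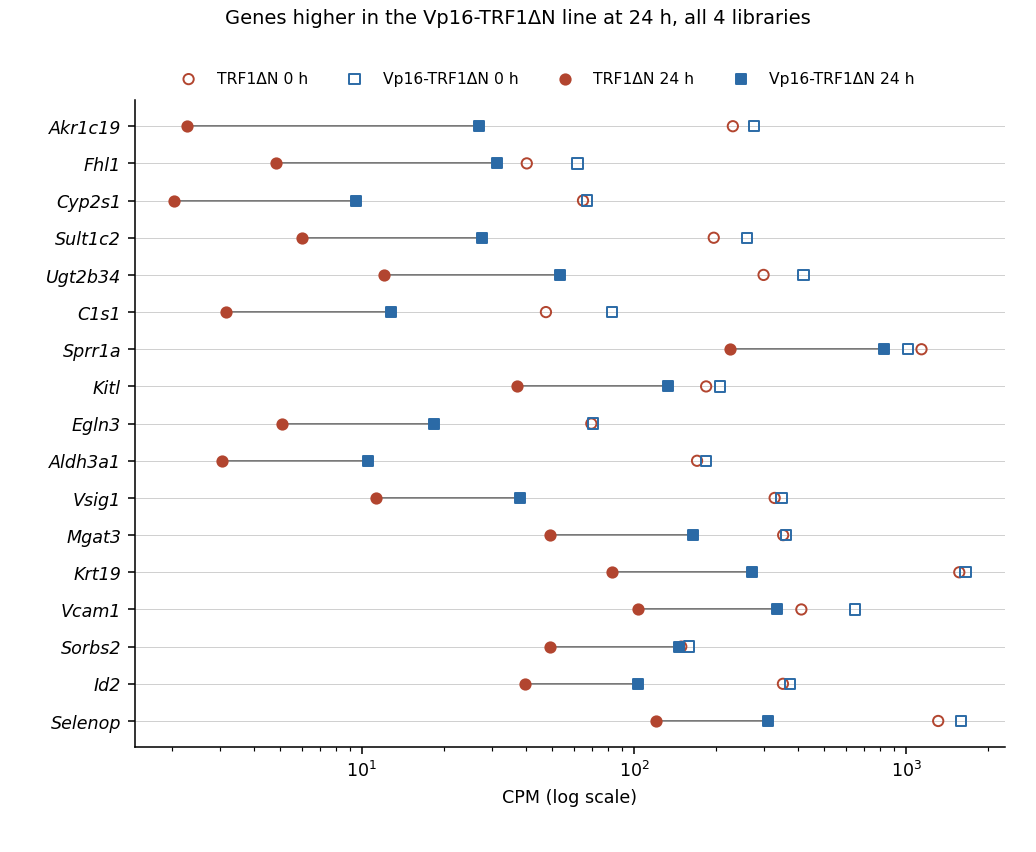
Level in each of the 4 libraries (x axis, CPM, log scale) for the named genes higher in the Vp16-TRF1ΔN line at 24 h; circles are TRF1ΔN, squares Vp16-TRF1ΔN, open symbols 0 h and filled symbols 24 h. In every row the treated TRF1ΔN library is the lowest of the 4, and the treated Vp16-TRF1ΔN library lies between it and at least 1 untreated library.

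The same window is shown for Sprr1a and Cyp2s1, an abundant epithelial gene and a detoxification gene, with the same 3 motifs in capitals. Sprr1a is at chr3:92485882-92486131 and Cyp2s1 at chr7:25816526-25816775, both on the minus strand. The Cyp2s1 window lies wholly inside the GENCODE gene, which starts further upstream, and the Sprr1a window reaches 14 bases into its gene.
Sprr1a: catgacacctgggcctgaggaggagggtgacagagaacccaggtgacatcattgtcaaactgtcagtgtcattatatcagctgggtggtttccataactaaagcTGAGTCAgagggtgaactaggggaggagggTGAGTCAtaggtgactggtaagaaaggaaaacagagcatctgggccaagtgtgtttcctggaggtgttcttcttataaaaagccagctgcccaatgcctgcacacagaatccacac
Cyp2s1: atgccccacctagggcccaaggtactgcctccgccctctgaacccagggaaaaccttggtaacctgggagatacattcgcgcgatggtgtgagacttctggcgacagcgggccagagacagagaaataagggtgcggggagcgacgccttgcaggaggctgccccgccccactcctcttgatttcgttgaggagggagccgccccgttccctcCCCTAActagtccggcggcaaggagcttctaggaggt
Sprr1a holds 2 AP-1 sites and Cyp2s1 1 telomeric unit.

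The 0 h pair shares no library with the 24 h pair, so the counted genes of both can be compared. No gene was counted in opposite directions. A gene could be counted at both times only if its mean reached 1 CPM in both pairs. Among genes counted at 24 h, 223 counted then only and 18 counted at both times met this. The others could not overlap, so a gene outside the overlap was not always alike at 0 h. Tnc, at a mean of 0.949 CPM at 0 h, was 2.56-fold lower then (1.57 to 4.31). The last section gives the overlap without this minimum. Of the genes counted as higher, 2 were counted at both times, C4bp and Gbp2b, which is 1.14% of the 24 h genes and 9.09% of the 0 h genes. Of those counted as lower, 16 were counted at both times, 9.76% of the 24 h genes and 50% of the 0 h genes. Besides Alpl, Scara3, Nes, Eda2r, Lcn2 and Timp3, these were Wfdc2, Pdzrn3, Gstt1, Krt7, Serpine2, Ecscr, Tmem173, Lrrc32, Glipr2 and Trps1. Lrrc32, which holds latent TGFβ at the cell surface, stood at 7.16 and 0.905 CPM at 0 h and at 66.5 and 21.3 CPM at 24 h, 3.12-fold lower (2.87 to 3.39). Wfdc2, a secreted protease inhibitor gene, stood at 14.7 and 0.696 CPM at 0 h and at 3.25 and 0.292 CPM at 24 h, 11.2-fold lower (5.88 to 23.8). Among the 176 genes higher at 24 h, 148 lay within 1.5-fold at 0 h, and their median log2 ratio was 1.33 at 24 h and 0.23 at 0 h. Among the 164 lower ones 101 lay within 1.5-fold at 0 h, with medians of -1.46 and -0.31. The prior count places genes with few or no counts at 0 h near a log2 ratio of 0. Nat8l and Igha, with 0 counts in both untreated libraries, are placed at 0 in this way. For such genes these figures do not show that the lines were alike before TGFβ.

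**Figure D4:**
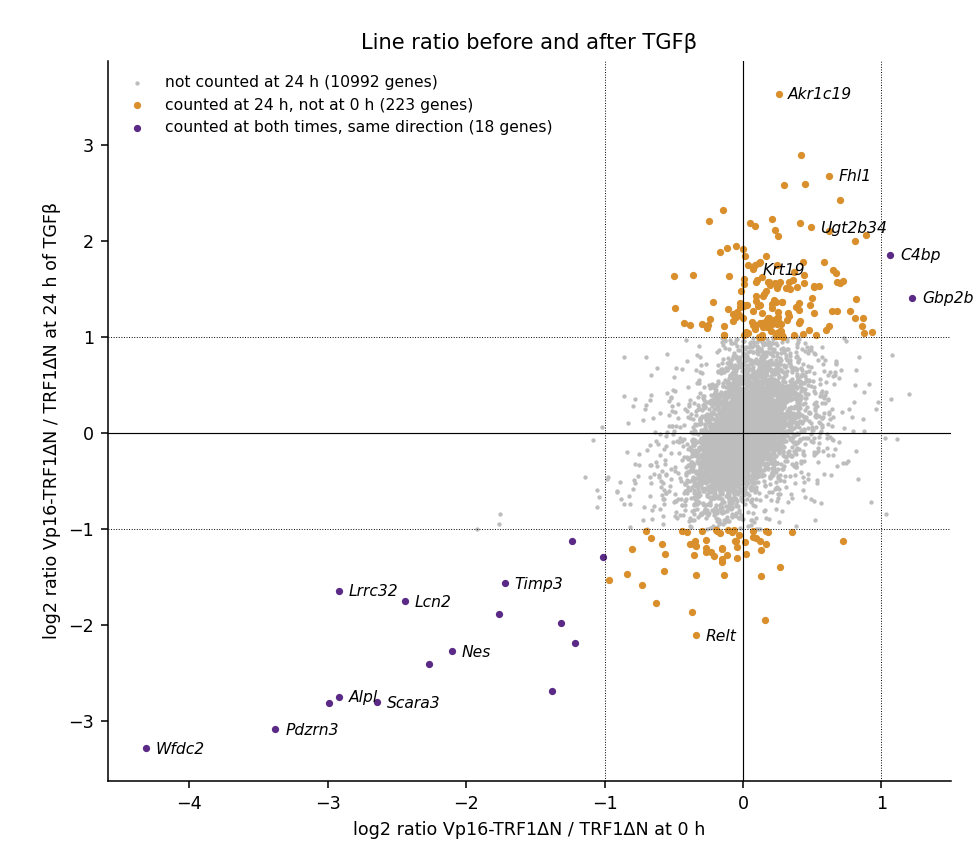
Log2 ratio of Vp16-TRF1ΔN to TRF1ΔN at 0 h (x axis) and at 24 h (y axis), 1 library each, for the 11233 genes whose mean reached 1 CPM in both pairs. Genes counted at 24 h only lie between -1 and 1 on the x axis, and the 18 counted at both times lie away from it in the same direction.

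Apart from Snai1, the genes most often used to follow the transition differed less between the treated lines than the ones above. Cdh1, which encodes E-cadherin and ties epithelial cells together, stood at 107 and 166 CPM at 24 h, 1.55-fold higher (1.49 to 1.61), and was not counted. N-cadherin (Cdh2) stood at 189.8 and 197 CPM and vimentin (Vim) at 3421 and 3695 CPM, log2 ratios of 0.05 and 0.11. Fibronectin (Fn1) stood at 1334 and 795 CPM, 1.68-fold lower (1.65 to 1.70), also under the 2-fold mark. Of the EMT transcription factors Snai1 was counted as lower: it stood at 0.588 and 0.696 CPM at 0 h and at 12.6 and 4.87 CPM at 24 h, 2.58-fold lower (2.17 to 3.09). Snai2, Zeb1 and Zeb2 had log2 ratios of -0.30, -0.17 and -0.09. Smad7, the feedback inhibitor of TGFβ receptors, had -0.48 and Id1 0.39. Epcam had 11 and 4 counts at 24 h, too few to place its ratio, and Esrp1, a splicing regulator of epithelia, had 0 counts in both. Among 28 measured EMT transcription factors of 31 listed, 1 was counted as higher (Id2) and 1 as lower (Snai1), with a median log2 ratio of -0.09 (all genes -0.01).

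Lists of genes written from general knowledge gave the wider picture, with each count to be read against the 1.5% and 1.4% of all genes counted as higher and lower. List medians at 0 h are of the same genes, kept by their level at 24 h. Some members had few or no reads at 0 h, such as Has2 (4 and 6 counts) and Wnt11 (0 and 0). The prior count draws such ratios towards 0, so a 0 h median near 0 does not show that a list was alike before TGFβ. Of 47 direct TGFβ and SMAD targets 44 were measured: 1 was counted as higher (Id2) and 11 as lower, 35 had a ratio below 1, and the median log2 ratio was -0.39, against 0.02 at 0 h. Besides Il11, Has2, Wnt9a, Snai1, Lif, Ccn2 and Lrrc32, the lower ones included Wnt11 (81 and 16 counts), Bambi, a decoy receptor (log2 ratio -1.17), and the anchoring-fibril collagen Col7a1 (175 and 82.3 CPM, log2 ratio -1.09). Of 12 measured hyaluronan genes 3 were counted as lower, Has2, Tnfaip6 and Has3 (log2 ratio -1.11), none as higher, and 11 were below 1 in ratio, with a median of -0.50 against 0.03 at 0 h. In the list of matricellular and glycoprotein genes 5 of 23 were lower and 1 higher, with a median of -0.29. The lower ones were Tnc, Fbn1, Ccn2, Thbs1 and Emilin1. Emilin1, an elastic fibre protein gene, stood at 3.59 and 1.05 CPM there, and Efemp1, a fibulin gene, went the other way at 0.404 and 2.39 CPM, 5.92-fold higher (3.48 to 10.7). Of 24 matrix proteases and inhibitors 5 were lower and 2 higher: Mmp9 (4.61 and 1.40 CPM), Serpine2 (3.28 and 0.584 CPM), Timp3 and Adamts4 were among the lower, Mmp13 (4.06 and 12.1 CPM) and Adamts1 (15.8 and 48.03 CPM) were the higher. Collagens were mixed, with 1 of 32 lower (Col7a1) and 1 higher, the collagen prolyl hydroxylase P3h2 (1.09), and Col1a1 at 18.5 and 9.57 CPM (-0.95) not counted. Integrins and laminins held 1 higher gene of 19, Itgb7 (2.19 and 5.49 CPM).

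Ligand and receptor lists leaned differently from one another. Of 12 measured genes of the IL-6 family and its receptors 4 were lower and none higher, namely Il11, Lif, the oncostatin M receptor Osmr (114 and 35 counts) and the feedback inhibitor Socs1. In the list of growth factors and their receptors 6 of 39 were lower and none higher, although the median was 0.11. Vegfa, the angiogenic factor, stood at 209 and 103 CPM, Fgf2 at 6.18 and 2.07 CPM and its receptor Fgfr1 at 21.5 and 9.57 CPM. Pdgfrb, the PDGF receptor of mesenchymal cells, had 0 and 1 counts at 0 h and 217 and 36 at 24 h. Of 20 BMP and Id genes 4 were lower and 2 higher: the activin antagonist Fstl3 stood at 6.63 and 0.554 CPM, 11.96-fold lower (7.51 to 20.2), and the ligand Bmp2 at 2.40 and 7.003 CPM, 2.92-fold higher (2.30 to 3.72). The other lower ones were Inhba, Bambi and Fstl1, so the activin A subunit and its antagonist were both lower. Inhbb, another activin subunit gene of the list, went the other way at 3.35 and 5.84 CPM, 1.74-fold higher (1.40 to 2.18), and was not counted. In the Wnt list 4 of 21 were lower, Wnt9a, Wnt11, Wnt7a (-1.17) and Wnt7b, and none higher. Of 14 Notch genes 2 were higher, the receptor Notch1 (8.69 and 19.4 CPM) and the target Hey1 (2.61 and 5.84 CPM), and 1 lower, the ligand Dll1 (29.2 and 14.3 CPM); Jag1, a ligand, had a log2 ratio of -0.88. Of 26 axon guidance genes 4 were higher and none lower, namely the semaphorins Sema3e (16.3 and 50.9 CPM) and Sema3c (125 and 288 CPM) and the Eph receptors Epha7 (10.2 and 25.6 CPM) and Epha4. Of 22 YAP and TEAD targets 1 was lower, Ccn2, with Ccn1 at -0.74. Of 32 actin and contractile genes 1 was lower, the nonmuscle myosin Myh10 (-1.58), and 1 higher, the microvillus protein gene Vil1 (1.32). In that list 25 genes were below 1 in ratio, and the median was -0.25 against -0.08 at 0 h.

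Epithelial genes did not move as one. Among 16 measured epithelial identity factors 1 was higher, Foxa2, a forkhead factor of endoderm and glands (11.4 and 33.97 CPM, log2 ratio 1.57), none was lower, 13 were above 1 in ratio, and the median log2 ratio was 0.39 against 0.08 at 0 h. Ehf and Klf5 were not counted, at 0.92 and 0.83. Of 37 junction genes 3 were higher and 5 lower, with a median of 0.03. The higher ones were Tjp3 (47 and 123 counts), the polarity gene Crb3 (72 and 148 counts) and periplakin, Ppl (69.2 and 144 CPM). The lower ones were Pkp1, Nectin1, the claudin Cldn4 (13.4 and 4.44 CPM), envoplakin, Evpl (2.80 and 0.934 CPM), and Nectin4 (5.32 and 2.04 CPM), so the 2 plakins Ppl and Evpl, partners in the cornified envelope, went opposite ways. Of 11 keratins and other intermediate filament genes 1 was higher, Krt19, and 3 lower, Krt7 (82 and 9 counts), Nes and Synm (-1.21). Among 13 surface proteases and secreted proteins of epithelia 2 were higher, C4bp and Mal2, and 3 lower, Wfdc2, Lcn2 and Alpl.

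Immune and detoxification genes leaned towards the Vp16-TRF1ΔN line. Of 12 measured complement and acute phase genes 5 were higher and none lower, with a median log2 ratio of 0.92; the same genes had a median of 0.42 at 0 h, where 1 was counted as higher. The protease C1ra stood at 3.16 and 8.49 CPM, next to C1s1 in the complex that starts the classical pathway, and C4bp at 1.81 and 6.68 CPM; C2 and C3 made up the 5. Of 31 chemokines and NF-κB targets 7 were higher and 1 lower (Lcn2), with a median of 0.30. Il33, an alarmin, stood at 19.7 and 61.98 CPM, 3.15-fold higher (2.90 to 3.41), and the chemokine Ccl20 at 7.32 and 21.9 CPM, 2.995-fold higher (2.62 to 3.43), while Ptgs2, the inducible cyclooxygenase, stood at 316 and 158 CPM and Saa3 at 7.20 and 3.998 CPM, neither of them counted. Of 24 interferon response genes 4 were higher and 1 lower. AW112010 had 33 and 211 counts, and the guanylate-binding protein genes Gbp2 (4.44 and 12.96 CPM) and Gbp3 (51 and 141 counts) were higher, as was Igtp, while Tmem173, which encodes STING, was lower (3.71 and 0.905 CPM). None of 12 antigen presentation genes was counted. Among 46 measured detoxification and antioxidant enzymes 7 were higher and 1 lower, 35 were above 1 in ratio, and the median was 0.39 against 0.13 at 0 h. Ephx1, an epoxide hydrolase and p53 target, stood at 83.6 and 172 CPM, and Gstt1, a glutathione transferase, was the lower one (81 and 8 counts). Of 20 sphingolipid genes 1 was higher, the phosphatase Sgpp2 (18 and 97 counts). To complete these counts Thbs1, Adamts4, Lrrc32, Socs1, Wnt7b, Epha4, Pkp1, Nectin1, Fstl1, Igtp, C2 and C3 were named after their values were seen.

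**Figure D5:**
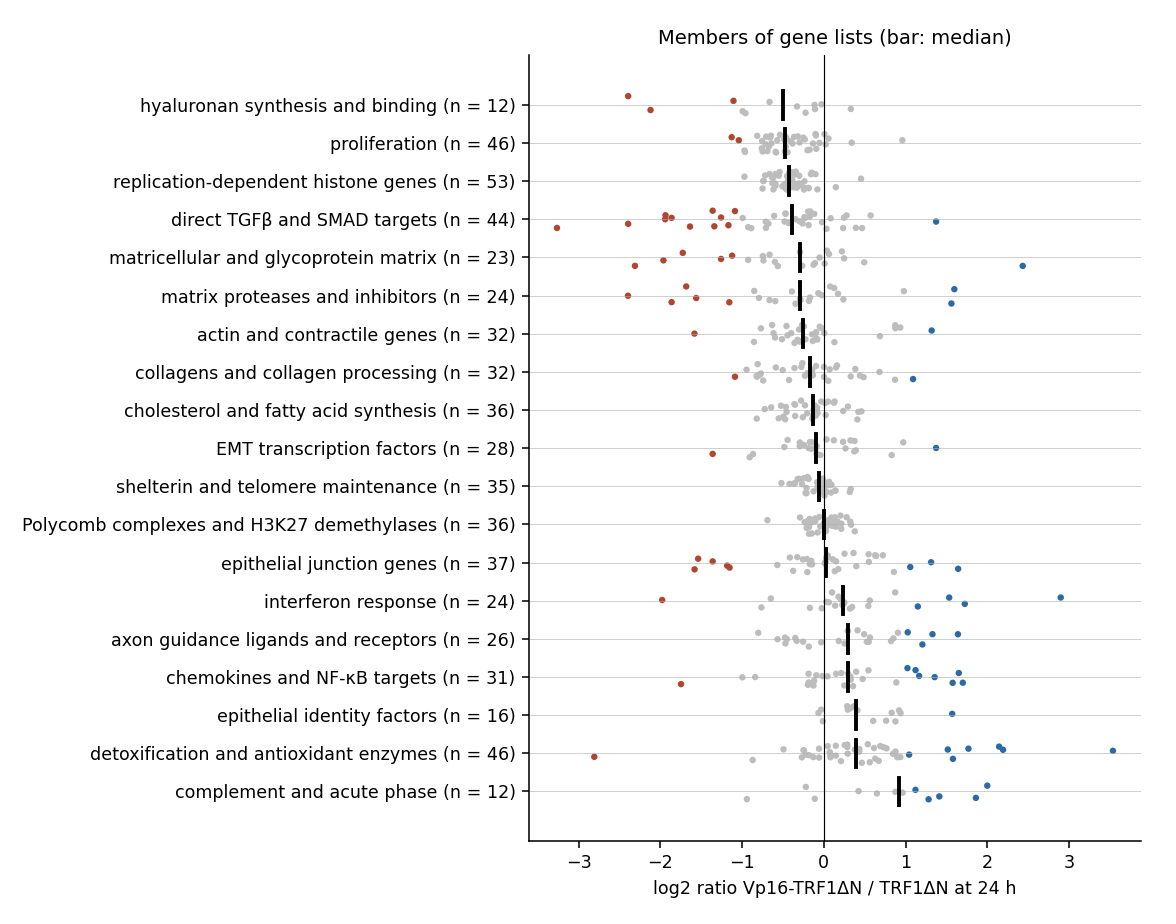
Log2 ratio of Vp16-TRF1ΔN to TRF1ΔN at 24 h (x axis) for the members of 19 gene lists with a mean of at least 1 CPM (rows, with the number of measured members); each point is a gene, red if counted as lower, blue if counted as higher and grey if not counted, and the bar is the median. Medians run from -0.50 for hyaluronan genes to 0.92 for complement genes, and most members of every list are grey.

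Growth, stress and metabolism genes were rarely counted, yet some lists had medians below 0. Of 46 proliferation genes 2 were lower, the centromeric histone Cenpa (47.9 and 21.9 CPM) and the mitotic phosphatase Cdc25c (11.9 and 5.75 CPM), none was higher, 41 were below 1 in ratio, and the median log2 ratio was -0.47 against -0.17 at 0 h. Plk1, a mitotic kinase, had -0.97. At the other end E2f2, an E2F factor of S phase entry, had 0.96, just short of being counted, the cyclin gene Ccne2 0.34 and the replication licensing gene Cdc6 0.06. None of 53 replication-dependent histone genes was counted, 51 were below 1 in ratio, and their median was -0.42 against -0.27 at 0 h. These genes have several near-identical copies, and how the counting split their reads was not tested. Beside both lists stand the lower depth and the higher mitochondrial share of the treated Vp16-TRF1ΔN library, whose part was not tested. Of 30 glycolysis and hypoxia genes 2 were lower, Pfkfb4 (61.5 and 18.1 CPM) and Vegfa, and 1 higher, Egln3. Of 32 ATF4 and endoplasmic reticulum stress genes 2 were lower, Trib3 (9.41 and 3.88 CPM) and Chac1 (10.7 and 4.96 CPM). Of 32 p53 targets 1 was higher (Ephx1) and 1 lower (Eda2r), and of 17 circadian genes 2 were higher, among them Dbp (5.25 and 12.8 CPM). None of 36 cholesterol and fatty acid genes, 22 AP-1 and immediate early genes, 10 CDK inhibitor, cyclin D and Myc genes or 9 mitochondrially encoded genes was counted, with medians of -0.13, -0.21, -0.02 and 0.13. The AP-1 subunits Fosb, just short of being counted, and Jun had -0.97 and -0.71. Of 76 cytoplasmic ribosomal protein genes 1 was lower, Rps6 (90 and 26 counts; reads shared with its copies were not examined), and of 12 small nucleolar RNAs 1 was lower, Snord13.

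Measured genes of telomeres and their chromatin differed by less than 2-fold between the treated lines. With 2.91% of all genes counted, lists of this size would hold few counted genes in any case. None of 35 shelterin and telomere maintenance genes was counted, with a median log2 ratio of -0.05 and the helicase Blm lowest at -0.52. None of 30 genes of telomeric and TERRA-bound chromatin was counted, but 24 were below 1 in ratio, with a median of -0.16 against -0.09 at 0 h. The lowest was the H3K9 methyltransferase Suv39h2 at -0.77. The 36 Polycomb and H3K27 demethylase genes had a median of 0.00 and none was counted, with Kdm6b lowest at -0.69. None of 12 Hox and imprinted genes was counted, among them Hoxa7 (0.72) and Peg3 (-0.53). Within 5 Mb of the distal chromosome end lay 6 of the 176 higher genes (3.41%) and 7 of the 164 lower ones (4.27%), against 644 of 11664 placed genes (5.52%). The higher ones there were Slc22a18, Itgb7, Bicd1, Sgsh, Agap2 and Nkain4, and the lower ones Sipa1l2, Asic1, Krt7, Shank2, Birc7, Pthlh and B4galnt4.

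Markers were used to look at what else the treated libraries could hold. Here a marker is called measured if it had a row of counts, whatever its level. The 7 measured epithelial markers of 9 listed summed to 6239 and 6254 CPM at 24 h, and none was at 0 in any library. Most of that sum was Krt8 (2095 and 1905 CPM) and Krt18 (3921 and 3862 CPM). The near-equal sums therefore say little of the other members, among which Krt19 was counted as higher and Krt7 as lower. The basal mammary markers (8 of 9 measured) summed to 10.2 and 5.603 CPM at 24 h and to 55.5 and 30.8 CPM at 0 h, and Krt14 stood at 3.04 and 1.96 CPM at 24 h. In each 0 h library 1 marker, with 2480 and 1220 counts, made up most of the basal sum. The luminal markers (7 of 10 measured) summed to 97.6 and 128 CPM and the fibroblast markers (4 of 6 measured, with Dcn at 0 in both) to 492 and 532 CPM at 24 h. Nearly all of the fibroblast sum was Gsn (490 and 530 CPM), while Pdgfra stood at 2.71 and 2.19 CPM. The immune markers summed to 5.44 and 3.85 CPM, with the macrophage receptor Csf1r at 101 and 21 counts, the endothelial markers to 38.8 and 48.1 CPM and the adipocyte markers to 15.1 and 22.7 CPM. Their part in the results above was not tested.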

How the data were processed

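Ribosome-depleted total RNA was sequenced in 4 libraries, 1 per group. Per the submitters' processing notes, the authors used FastQC, STAR, HTSeq and DESeq2 with the genome build mm10; annotation release, strand setting and versions: not given in the sources used here. Deposited counts per gene were used. The deposited log2 values equal log2(count / DESeq2 size factor + 1) and served as an alternative. The 4 construct rows were left out. Symbols and coordinates came from GENCODE on GRCm38, the same build, for 21889 of 21971 genes.

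Library sizes were scaled with TMM factors (edgeR 4.0.16) over the 4 libraries. Log2 ratios carry a prior count of 2; folds are ratios of CPM with the exact Clopper-Pearson 95% interval conditional on the sum of the 2 counts. A gene was counted at a log2 ratio of 1 or more in size with a mean of at least 1 CPM in the pair and an interval that excludes 1. A count of 3, the limit that a count of 0 allows, equals 0.0630, 0.0713, 0.0696 and 0.0875 CPM (both times for TRF1ΔN, then both times for Vp16-TRF1ΔN). Intervals and limits cover counting error only; reads are not independent molecules. The 24 h pair shares its libraries with each line's TGFβ response, so no overlap with those responses is given.

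Genes named are, per direction, the 15 largest ratios at a mean of 5 CPM or more, the 8 largest at 50 CPM or more, the 5 largest counted at both times, up to 3 members at each end of each of 48 lists, 13 EMT and TRF1 genes, and 2 genes each side of the 1 CPM minimum. Predicted genes, pseudogenes, small nucleolar RNAs and mitochondrial genes were left out of the first 3 picks. Genes that complete a small count or an overlap were named after their values were seen. A few genes that meet these rules are not reported here. The members, lists and rules were chosen with earlier results of these data known. Alternatives covered scaling, the prior count, the minimum level, the fold and the interval.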

Additional observations from a re-analysis of the deposited data

Results flagged for a closer look

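In 5 of the named genes the treated library stood above the untreated one in one line and below it in the other, by at least 1.5-fold each way and with both 95% counting intervals excluding 1. Other named genes went opposite ways by less. Each line had 1 library per time, so this difference was not tested. Many of the named genes were picked by their 24 h line ratio, which shares the treated libraries with these responses. How many of all genes went opposite ways was not counted, so the 5 cannot be called many or few. Lpin3, a phosphatidate phosphatase gene, had a log2 ratio of 24 h to 0 h of 0.97 in the TRF1ΔN line and -1.13 in the Vp16-TRF1ΔN line. For the small nucleolar RNA Snord13 the ratios were 0.87 and -0.79, from 53 to 87 counts and from 58 to 26 counts. Inhbb, an activin subunit gene, had -0.96 and 0.69. By the same measure the order of the 2 lines in Inhbb differed between the times, with a log2 ratio of Vp16-TRF1ΔN to TRF1ΔN of -0.86 at 0 h and 0.79 at 24 h. Other named genes changed order with less than 1.5-fold at one of the times or both, among them Hey1 at -0.43 and 1.14. The Notch target Hey1 had -0.65 and 0.92, and the matrix protease gene Adamts1 -0.80 and 0.69, in the TRF1ΔN and the Vp16-TRF1ΔN line.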

How the results depend on the processing

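No paired analysis was possible because each group held 1 library and the labels carry no replicate numbers; for the same reason no library could be left out. The counts of 176 higher and 164 lower genes at 24 h stayed within 1.5 times under DESeq2's size factors (175 and 166), TMM within the pair (175 and 164), total counts (175 and 166), the authors' log2 values (179 and 168), mitochondrial genes left out (184 and 182), a 99% interval (176 and 164), an added coefficient of variation of 0.2 (176 and 164) and a prior count of 0.5 (184 and 168). The 99% interval and the added variation could hardly remove a gene. Around a ratio of 2-fold or more, an interval of either width excludes 1 unless counts are low. Their equal counts therefore do not show how the calls would hold between cultures. The counts of higher and lower genes moved with the minimum level and the fold. In the order higher and lower at 24 h, higher and lower at 0 h, higher and lower at both times, no filter gave 417, 483, 179, 206, 20 and 65. A mean of at least 5 CPM gave 81, 75, 3, 10, 0 and 5. A 1.5-fold rule gave 610, 558, 141, 121, 37 and 45, and a 3-fold rule 47, 67, 0, 18, 0 and 10. A minimum of 1 CPM over all 4 libraries, chosen after seeing the data, gave 249 and 139 at 24 h (171 and 130 of them the genes of the main count), so that 64.2% of counted genes were higher in place of 51.8%, with 49 lower at 0 h and 7 and 27 at both times. Scaling moved the median log2 ratio of all genes by at most 0.0058. Of the values of 284 named genes under 6 alternatives, 1695 stayed within their counting error and 3 moved further. Among the counted genes 0 values changed sign, and sign changes of named genes that were not counted were not tallied. Under another scaling 282 list medians stayed within 0.1 and 5 moved further, and under another minimum level 74 stayed and 20 moved. Depth limits genes near the minimum, where intervals of a 2-fold ratio are wide, and variation between cultures was not measured.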
